A study of Mus musculus with 4 samples.

Results

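The entries described are those microRNA entries of a pooled knockout screen that belong to none of the let-7, miR-34, miR-449, miR-200, miR-290, miR-302, miR-17-92 or Sfmbt2-cluster families or their paralogous clusters. They were chosen by a rule on names, with earlier results of these data known, from entries that start with mmu-. They number 1025 of the 1132 microRNA entries and of the 22510 entries in all. Together they hold 3885 of the 121918 guides behind the values. The cells were E14, an established mouse embryonic stem cell line, carrying a tdTomato reporter driven by MERVL, a retroviral element switched on at the 2-cell stage of the mouse embryo and in the few cultured stem cells that resemble it. All cells carried the reporter and received a lentiviral CRISPR-Cas9 library of 130209 guides in the lentiCRISPRv2 backbone, for 24 h with 4 ug/mL polybrene, followed by 48 h of puromycin at 2 ug/mL. Guides were counted in 4 libraries, 2 of reporter-positive cells sorted at day 5 and 2 of total cells, with no other treatment named. Titles of the libraries call them sequencing repeats and name no separate cultures. Any spread between libraries behind the deposited p-values may thus be technical alone.

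A microRNA is cut out of a hairpin in a longer transcript, first by Drosha in the nucleus and then by Dicer in the cytoplasm, and is loaded into an Argonaute protein. Its seed, the stretch of bases near the 5′ end, pairs with target messages and lowers their translation and stability. Hairpins with the same seed can act on the same targets, and a cut in 1 hairpin leaves the others in place. Embryonic stem cells that lack the microRNA machinery still grow but differentiate poorly, and most of the microRNAs known to act in these cells belong to families outside this set. The miR-344 family is an exception. It has been reported as a target of the transcription factor Dux that favours the 2-cell-like state by repressing Zmym2.

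Each entry has a single log2 fold change and nothing per library, so no entry has a spread between libraries, and the depth per library is unknown. The authors' deposited table does not name the numerator. Positive values are taken to mean that guides were more frequent among MERVL-positive than total cells, because Ints7, which the study's title ties to active MERVL, ranks 157 for positive and 18586 for negative change, per the authors' deposited table. That reading is likely and not settled, and with the other reading every direction below turns. About 3.84 cells were sorted per guide of the library, so a hairpin that missed every threshold cannot be said to be without effect.

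Mature sequences below are from RefSeq, build GRCm38.p6, with the seed (bases 2 to 8) in capitals, and hairpin coordinates further on are of the same build. RefSeq genes matched 1007 entries by symbol and 3 by synonym, and 923 entries had a mature sequence. The first set is the 5p arm of miR-344 entries (miR-344i is named without an arm; miR-344e and miR-344h-1, whose 5p arms start elsewhere, are left out), shown because of the family's reported link to MERVL. In 5 of the 8 the seed is the same, and miR-344f, miR-344d-2 and miR-344i differ from it.
miR-344-5p: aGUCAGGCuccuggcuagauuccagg
miR-344b-5p: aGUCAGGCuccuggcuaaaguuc
miR-344c-5p: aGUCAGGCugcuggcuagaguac
miR-344d-1-5p: aGUCAGGCugcuggcuauacacca
miR-344g-5p: aGUCAGGCuccuggcaggagu
miR-344f-5p: aGUCAGUCuccuggcuggaguc
miR-344d-2-5p: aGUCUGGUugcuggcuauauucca
miR-344i: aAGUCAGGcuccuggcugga

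The next set is shown for entries that the values below turn on, and it does not hold all of the most extreme ones. It holds miR-204, whose 3 guides were all up, with miR-211 and miR-7670, which share its seed. After them come miR-5133, ranked first of the set for enrichment, and miR-7012, ranked first for depletion. Both arms of miR-7037, the lowest value of all, and a single arm each of miR-202, miR-23a, miR-134 and miR-154 follow.
miR-204-5p: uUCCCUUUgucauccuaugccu
miR-211-5p: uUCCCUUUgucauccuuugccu
miR-7670-3p: uUCCCUUUcugaauaucuguaga
miR-5133: gCUGGAGCugcggcagcgcag
miR-7012-5p: aAGGAGAGgaguuggcagggacu
miR-7037-5p: aAGGUGGCcacaggagaucauggu
miR-7037-3p: uGUCUCCUaaugucaccugcag
miR-202-3p: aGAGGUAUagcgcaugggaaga
miR-23a-3p: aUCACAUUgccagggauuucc
miR-134-5p: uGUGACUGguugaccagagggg
miR-154-5p: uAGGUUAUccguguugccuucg

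The last set is the largest group of entries with a common seed, that of miR-15 and miR-16, and the seed group of miR-705, the only one with more than 1 entry past an unadjusted enrichment p of 0.05.
miR-15a-5p: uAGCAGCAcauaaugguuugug
miR-15b-5p: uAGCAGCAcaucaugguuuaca
miR-16-5p: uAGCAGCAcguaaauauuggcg
miR-195a-5p: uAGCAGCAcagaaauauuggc
miR-195b: uAGCAGCAcagaaauaguagaa
miR-322-5p: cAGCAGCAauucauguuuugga
miR-6342: cAGCAGCAaucuggucuuugag
miR-6353: uAGCAGCAcguauuuauccuauu
miR-6419: cAGCAGCAaucugacacaugga
miR-705: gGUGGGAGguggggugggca
miR-7008-5p: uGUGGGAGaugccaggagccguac
miR-6922-5p: uGUGGGAGgggacuguagagagg
miR-6993-5p: aGUGGGAGaaacgggugucuguc

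As a set, the 1025 microRNA entries lay close to the rest of the screen. Their median log2 fold change was 0.013, and 521 of them, or 50.8%, lay above 0. The median was -0.018 over all 22510 entries, -0.021 over 20380 genes, 0.071 over the 107 other microRNA entries and 0.019 over 998 single non-targeting guides. Their mean of -0.050 lay on the other side of 0 from the median, next to means of -0.052 over all entries and -0.040 over the non-targeting guides. The quartiles of the microRNA entries were -0.38 and 0.38, and the whole set ran from -3.05 to 1.84. Values were more spread than those of genes, with a standard deviation of 0.624 over entries against 0.480 over genes. Genes mostly have 6 guides and these entries mostly 4, and the 446 genes with 4 guides had a standard deviation of 0.559 against 0.597 for the 851 microRNA entries with 4 guides.

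No microRNA entry reached a rate of false discoveries under 0.05 in either direction, per the authors' deposited table. The lowest rate was 0.827 for enrichment and 0.846 for depletion, per the authors' deposited table. Over all 22510 entries MAGeCK's rate was under that threshold for 0% in enrichment, where 1114 entries had an unadjusted p under 0.05, and for 0.00444%, the single gene Gm10413, in depletion. By unadjusted p, 44 entries, or 4.29%, had an enrichment p under 0.05, where 4.95% of all entries did. A depletion p under 0.05 was held by 47 entries, or 4.59%, against 5.08% of all entries. Below 0.01 stood 11 entries for enrichment, or 1.07% against 1.05% of all entries, and 5 for depletion, or 0.488% against 1.14%. Each of these shares is near or under the background of the whole table, so the counts are no result about microRNAs. No entry passed 0.05 in both directions. The best rank of any of these entries was 36 of 22510 for enrichment and 88 for depletion, per the authors' deposited table.

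Grouped by the number of guides, 851 entries had 4 guides, 136 had 3, 30 had 2, 7 had 1 and 1 had 6. Medians were 0.021 for 4 guides, -0.066 for 3, -0.049 for 2 and -0.29 for 1. The entries with 4 guides ran from -3.05 to 1.84 and held 39 of the 44 entries under 0.05 for enrichment and 41 of the 47 for depletion. These were 4.58% and 4.82% of the 851, against 4.95% and 5.08% of all entries. Entries with 3 guides ran from -2.64 to 1.51, had a standard deviation of 0.759 and held 5 entries under 0.05 in each direction, or 3.68%. Of the 30 entries with 2 guides, from -1.43 to 1.53, 15 lay above 0, and 1, or 3.33%, had a depletion p under 0.05. None of the 7 single-guide entries passed in either direction. With 1 guide, an entry's value rests on 1 sequence and cannot show whether guides act alike. Those 7 entries included mmu-mir-142, a marker of blood cells, at 0.74, and mmu-mir-344-1 at -0.60, per the authors' deposited table. The single entry with 6 guides, mmu-mir-6967, had a value of -0.49 with 2 guides up and 3 down, per the authors' deposited table.

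By median, the hairpins of entries with 1 or 2 guides held fewer possible Cas9 sites than those of entries with 3 or 4, with overlap. An NGG site, the motif that the enzyme needs beside its target, was counted on both strands of each RefSeq hairpin, which 880 entries had. The median was 11 sites for entries with 4 guides, 10 for those with 3, 6 for those with 2 and 2.5 for those with 1. The highest number was 43, 31, 23 and 7 in the same order, and the lowest 1, 1, 0 and 1. Some entries thus had more guides than counted sites, so the count is not that of all sites the guides could use. The median share of G and C bases was 52.6%, 52.1%, 47.0% and 37.4% in the same order. Names with a copy number mostly mark hairpins at different places that give the same mature microRNA. They made up 6.35% of entries with 4 guides, 14.0% of those with 3, 16.7% of those with 2 and 42.9%, or 3 of 7, of those with 1. These measures belong to the hairpins and not to the screen's outcome. Across the 732 entries with 4 guides and a hairpin, which share their libraries, Spearman's rho with the log2 fold change was 0.0015 for GC content, 0.017 for hairpin length and 0.020 for the number of sites.

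For each entry the authors' deposited table also counts guides past a threshold set on single guides, here named guides up where the change was positive and guides down where it was negative. The threshold is loose, since 37.4% of all guides in the table were up and 37.9% down. Of the 3885 guides against these microRNAs, 39.4% were up and 36.4% down. Among the 851 entries with 4 guides, all 4 were up in 23, or 2.70%, where 2.79% of all 1360 entries with 4 guides had this. All 4 were down in 22, or 2.59%, against 2.5%. Those 1360 entries include the 851, so these shares could differ little. Among the 446 genes with 4 guides the shares were 2.47% up and 2.24% down. Among the 63 other microRNA entries with 4 guides they were 6.35%, or 4 entries, and 3.17%, or 2 entries. The 44 entries with an enrichment p under 0.05 were mixed. In 19 of them every guide was up, and in another 19 at least 1 guide was down. Of the 47 entries with a depletion p under 0.05, every guide was down in 20 and at least 1 was up in 25. Their log2 fold changes ran from -3.05 to 1.04, with 2 of the 47 above 0.

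For enrichment, mmu-mir-5133 came first of the set, with a log2 fold change of 1.10, 4 of 4 guides up and an enrichment p of 0.00127, per the authors' deposited table. Its hairpin lies on chromosome 9 from 62122518 to 62122594, inside Glce, a heparan sulfate epimerase gene. The conserved mmu-mir-28a, inside the adhesion gene Lpp on chromosome 16 from 24827855 to 24827940, came next at 0.38, with 3 guides up, 1 down and a p of 0.00167, per the authors' deposited table. After it, mmu-mir-6948 inside Acin1, the gene of a splicing-associated RNA-binding protein, had 1.18 with 4 of 4 guides up and a p of 0.0032, per the authors' deposited table. In contrast, mmu-mir-6988 inside the ubiquitin ligase gene Syvn1 had 0.87 and a p of 0.00344 with 2 guides up and 2 down, per the authors' deposited table. These entries thus reached like p-values with guides that moved together and with guides that did not.

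The microRNA mmu-mir-204, known from retinal pigment epithelium, had a value of 1.38 with 3 of 3 guides up and a p of 0.00353, per the authors' deposited table. It lies on chromosome 19 from 22750605 to 22750672 inside Trpm3, a cation channel gene. Its relative mmu-mir-211, whose seed is identical, had 0.079 with 2 guides up and 1 down, and mmu-mir-7670 had -0.20 with none up and 1 down, per the authors' deposited table. The entry mmu-mir-710 had the highest value of the set, 1.84, with 3 guides up and 1 down and a p of 0.00415, per the authors' deposited table. The remaining entries among the 10 lowest enrichment p-values were mmu-mir-5618 at 1.10, mmu-mir-1932 at 1.54, mmu-mir-6997 at 1.18 with 4 of 4 guides up, and mmu-mir-99b at 0.93, per the authors' deposited table. Among the 5 highest values of entries with 4 guides were also mmu-mir-10a at 1.52, mmu-mir-7655 at 1.35 and mmu-mir-7578 at 1.23, per the authors' deposited table. The hosts of the last pair are chromatin genes, Mllt10, a partner of the histone methyltransferase Dot1l, and Brd3, a bromodomain protein.

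For depletion, mmu-mir-7012, inside Dennd4b on chromosome 3 from 90270149 to 90270212, came first of the set with a value of -2.08, 3 guides down, 1 up and a p of 0.00296, per the authors' deposited table. The entry mmu-mir-1930 had a p of 0.00497 at a value of only -0.26, with 2 guides down and 1 up, per the authors' deposited table. By contrast, mmu-mir-23a, a conserved microRNA with roles in blood, muscle and heart, had -1.85 with 4 of 4 guides down and a p of 0.00574, per the authors' deposited table. Its hairpin stands on chromosome 8 from 84208518 to 84208592 in a cluster with mmu-mir-27a and mmu-mir-24-2, which had 0.25 and 0.52, per the authors' deposited table. The cluster's value was thus low at 1 of 3 hairpins. Its paralog mmu-mir-23b had 0.38 with 3 guides up and none down, per the authors' deposited table.

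Of the other entries with low depletion p-values, 4 had every guide down. The microRNA mmu-mir-202, expressed in gonads, had -2.92 and a p of 0.0104 with 4 of 4 guides down, per the authors' deposited table. It lies on chromosome 7 from 139957689 to 139957760. Values of -1.86 for mmu-mir-154 and -1.06 for mmu-mir-6925 came with 4 of 4 guides down, and -1.13 for mmu-mir-193b with 3 of 3, per the authors' deposited table. The remaining entries were mmu-mir-6239 at -1.59 with 3 guides down and 1 up, and mmu-mir-7a-2 at -0.21 with 2 guides in each direction, per the authors' deposited table. Among the 5 lowest values of entries with 4 guides were also mmu-mir-3104 at -2.26 and mmu-mir-690 at -2.24, per the authors' deposited table. With a false discovery rate of at least 0.846 for each, none of these differences passed.

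The lowest value of all 1025 entries, -3.05, was that of mmu-mir-7037, with 3 guides down, 1 up and a depletion p of 0.00601, per the authors' deposited table. This hairpin lies on chromosome 5 from 139767879 to 139767943, on the same strand as and inside Ints1, the largest subunit of the Integrator complex. Integrator cuts RNA as it is being transcribed, and another subunit, Ints7, is named in the study's title. Ints1 itself had a value of 1.37 with 6 of 6 guides up and an enrichment p of 0.00887, per the authors' deposited table. The values of the hairpin and of the gene around it thus differed in sign, while 1 of the 4 hairpin guides was up like those of the gene. Neither value passed the false discovery rate of 0.05. A single other pair had both log2 fold changes at 1 or more from 0. In that pair mmu-mir-652 had -1.07 and its host Tmem164 had 1.45, per the authors' deposited table, again of opposite sign.

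In all, 475 hairpins lay inside a protein-coding gene on its strand, 62 on the opposite strand, 146 inside a gene with strand unknown here and 327 outside such genes. Medians were 0.024, -0.069, 0.072 and -0.0066. An enrichment p under 0.05 was held by 29 of the 475 same-strand entries, or 6.11%, and by 7 of the 327 outside genes, or 2.14%, against 4.95% of all entries. For depletion the shares were 5.05% and 3.67%, against 5.08%. On the opposite strand the shares were 1.61% for enrichment and 8.06%, or 5 of 62, for depletion, and with strand unknown 4.79% and 3.42%. The difference between the places was seen after the values and was not tested. A host value was in the table for 453 same-strand entries. In 221 of these the host and the hairpin lay on the same side of 0, and over the 425 hosts Spearman's rho between the gene and its hairpins was -0.017. Of the 52 entries with a p under 0.05 in either direction that had such a host, 26 lay on the host's side of 0. Of 25 entries whose host had a depletion p under 0.05, 10 lay below 0. Of the same 25, 1 had a depletion p under 0.05, against 5.08% of all entries. Of 30 whose host had an enrichment p under 0.05, 14 lay above 0. Of the same 30, 1 had an enrichment p under 0.05, against 4.95% of all entries. The hairpins' values thus showed no ordering by the values of their hosts.

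The 11 entries of the miR-344 family lay between -0.99 and 0.59 with a median of 0.10, where all entries had -0.018. Of the 11, 7 were above 0, 1 had an enrichment p under 0.05 and none a depletion p under 0.05, against 4.95% and 5.08% of all entries. Of their 39 guides 33.3% were up and 25.6% down, both below the 37.4% and 37.9% of the whole table. The highest was mmu-mir-344f at 0.59, with 4 of 4 guides up, an enrichment p of 0.0249 (false discovery rate 0.985), per the authors' deposited table. Its hairpin lies on chromosome 7 from 62046181 to 62046248. The lowest, mmu-mir-344c at -0.99, had 4 of 4 guides down and a depletion p of 0.0511, per the authors' deposited table. That hairpin lies on the same strand from 61837311 to 61837402. The members at the ends of the range were thus each carried by all of their guides, in opposite directions.

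Between these lay mmu-mir-344g at 0.49, mmu-mir-344e at 0.34, mmu-mir-344-2 at 0.29 and mmu-mir-344d-2 at 0.16, per the authors' deposited table. Closer to 0 were mmu-mir-344b at 0.10, mmu-mir-344h-1 at 0.051, mmu-mir-344d-1 at -0.062 and mmu-mir-344i at -0.065, per the authors' deposited table. The single guide of mmu-mir-344-1 gave -0.60, per the authors' deposited table. Sorted by seed, the 5 entries with the common 5p seed had 0.49, 0.29, 0.10, -0.062 and -0.99, per the authors' deposited table, so sharing that seed did not bring their values together. On the 3p arm miR-344c and miR-344-2 share a seed too, at -0.99 and 0.29, per the authors' deposited table. The hairpins stand within a stretch of chromosome 7 and are similar in sequence, so a guide against 1 may match another.

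MicroRNAs reported to repress the pluripotency factors Nanog, Oct4, Sox2 or Klf4 had 5 entries, with a median of -0.69. The brain-enriched mmu-mir-134 had -1.50 with 4 of 4 guides down and a depletion p of 0.0252, per the authors' deposited table. The smooth muscle microRNA mmu-mir-145a had -1.39 with 3 guides down, 1 up and a depletion p of 0.0426, per the authors' deposited table. Below 0 was also mmu-mir-470 at -0.69, with 2 guides down and none up, per the authors' deposited table. The values of mmu-mir-296 and mmu-mir-145b were 0.085 and 0.29, per the authors' deposited table. Of 20 guides against the 5, 11 were down and 6 up. The list is small, with 2 of 5 entries under a depletion p of 0.05 where 5.08% of all entries were, and neither passed the false discovery rate. Its median was the lowest of the 15 lists, which were chosen with earlier results of these data known. The entry mmu-mir-134 is counted again in the list of the Dlk1-Dio3 region below.

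Tissue microRNAs, which embryonic stem cells mostly do not express in quantity, were examined by list, and the few entries under 0.05 in each are to be read against 4.95% of all entries for enrichment and 5.08% for depletion. The 11 muscle entries had a median of 0.30, with 8 above 0 and none under 0.05 in either direction. They ran from -0.66 for mmu-mir-133b, with 3 of 4 guides down, to 0.54 for mmu-mir-133a-1, with 3 of 4 up, per the authors' deposited table. The 25 neural entries had a median of -0.021, 11 above 0, 1 under 0.05 for enrichment and 2 for depletion, or 1 and 2 of 25, against 4.95% and 5.08% of all entries. Those were the oligodendrocyte microRNA mmu-mir-219a-1 at 0.76, mmu-mir-138-2 at -1.25 and mmu-mir-7a-2, per the authors' deposited table. The 15 blood cell entries had a median of 0.067, with 11 above 0. Among them the lymphocyte microRNA mmu-mir-150 had 0.55 with 4 of 4 guides up and an enrichment p of 0.029, per the authors' deposited table. The myeloid mmu-mir-223 had a depletion p of 0.0288 at a value of -0.0051, with 1 guide in each direction, per the authors' deposited table. A p without a difference in the entry's value was thus possible.

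The 9 entries of endothelial, epithelial, liver and islet microRNAs had a median of -0.078, and mmu-mir-215, a p53-responsive microRNA, had the 1 depletion p under 0.05, at -1.35 with 3 guides down and 1 up, per the authors' deposited table. The 6 Hox cluster entries had a median of 0.026. One of them, mmu-mir-10a, on chromosome 11 from 96317165 to 96317274 among the Hoxb genes, had 1.52 with 3 guides up, none down and an enrichment p of 0.0121, per the authors' deposited table. Its paralog mmu-mir-10b had -0.097, per the authors' deposited table. The 16 entries of miR-26, miR-29, miR-30 and miR-101 had a median of 0.25 with 10 above 0 and 1 depletion p under 0.05, that of mmu-mir-30e at -0.030, per the authors' deposited table. All 4 miR-29 entries, which repress collagen and DNA methyltransferase messages, lay above 0, from 0.18 to 0.76, with 53.3% of 15 guides up, and none had a p under 0.05, per the authors' deposited table.

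The miR-130, miR-301, miR-721, miR-148 and miR-152 entries, 9 in all, had a median of 0.22. Their mmu-mir-130b had a depletion p of 0.0254 at a value of 1.04, with 2 guides up and 1 down, per the authors' deposited table, so the p and the value pointed in different directions. The 7 entries of miR-23, miR-24, miR-27, miR-221 and miR-222 had a median of 0.25 and a mean of -0.095, and held mmu-mir-23a. Sensory-organ microRNAs miR-96, miR-182 and miR-183 had 0.24, 0.22 and -0.0097, per the authors' deposited table. The 4 hairpins made without Drosha had a median of 0.070, with mmu-mir-1224, a mirtron cut out by splicing, highest at 0.57, per the authors' deposited table. None of these last 7 entries had a p under 0.05 in either direction.

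The microRNAs miR-15 and miR-16 slow the cell cycle by repressing cyclin messages. The list named for them had 9 entries by name, with a median of 0.075 and none under 0.05. Its mmu-mir-15b had 0.70 with 3 of 3 guides up and an enrichment p of 0.0561, per the authors' deposited table. At the other end mmu-mir-497b had -0.46 with 4 of 4 guides down and a depletion p of 0.0579, per the authors' deposited table. Neither mmu-mir-497b nor mmu-mir-503, at -0.050, is among the 10 entries with the printed seed, so both are in this list by name only. Grouped by the printed seed in place of the name, 10 entries had a median of 0.50, with 8 above 0 and 59.0% of 39 guides up and 17.9% down. These included mmu-mir-6419 at 0.84, mmu-mir-6353 at 0.82, mmu-mir-195a at 0.60 and mmu-mir-15a at 0.60, each with 3 guides up, per the authors' deposited table. Below 0 were mmu-mir-16-2 at -0.31 and mmu-mir-322 at -0.044, per the authors' deposited table. None of the 10 had a p under 0.05 in either direction, and the group was examined as the largest of 40 seed groups.

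Those 40 groups, each of 3 or more entries with a common seed on either arm, hold 139 entries. In 32 of the groups entries lay on both sides of 0, in 6 all lay above and in 2 all lay below. Groups can share hairpins, and the same 3 hairpins of miR-103 and miR-107 make up 2 of the 6, once by each arm, as those of miR-9 make up 2 of the 32. In 31 groups no entry had a p under 0.05. The group of miR-705 was the only one with 2 entries under 0.05 in the same direction, 2 of 4 for enrichment where 4.95% of all entries were, and it was picked out of the 40 for this. There mmu-mir-7008 had 0.86 with 3 guides up and none down, mmu-mir-705 had 0.75 with 4 of 4 up, mmu-mir-6922 had 0.55 with 3 up and none down, and mmu-mir-6993 had 0.13 with 1 guide each way, per the authors' deposited table. Enrichment p-values were 0.0126, 0.0273, 0.0937 and 0.0653 in the same order, per the authors' deposited table. Of the 15 guides, 73.3% were up and 6.67% down. The hairpins lie on chromosomes 3, 6, 11 and 19. The groups wholly below 0 were those of miR-199, with 3 entries from -0.70 to -0.38, and of miR-674, miR-1947 and miR-3473d, from -1.41 to -0.15. In the latter group 1 of the 3 was under a depletion p of 0.05, where 5.08% of all entries were.

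Where names give 2 or more hairpins of 1 microRNA by a copy number, the copies could be set side by side. This held for 36 microRNAs with 75 entries. The copies were taken by name, and not every arm is the same, as the printed 5p arms of miR-344d-1 and miR-344d-2 show. In 14 of the 36 every copy lay on 1 side of 0, and in 22 the copies lay on both sides. In none did 2 copies have a p under 0.05, where 4.95% of all entries had one for enrichment and 5.08% for depletion. With so few calls this is no result about the copies. In 3 microRNAs a single copy had a p under 0.05. These 3 were miR-219a, with 0.76 and -0.69 for its first and second copy, miR-138, with 0.040 and -1.25, and miR-7a, with 0.82 and -0.21, per the authors' deposited table. The widest gap was that of miR-692, with -2.24 for mmu-mir-692-1 and 0.57 for mmu-mir-692-2, per the authors' deposited table. The closest values were those of mmu-mir-8099-1 and mmu-mir-8099-2, -0.082 and -0.038, per the authors' deposited table. A cut in 1 copy leaves copies at other places in the genome, and guides can match more than 1 copy. The hairpins of mmu-mir-5615-1 and mmu-mir-5615-2 are not at different places. They overlap on opposite strands of chromosome 10, from 81104614 to 81104673 and from 81104616 to 81104675. Their values were 0.53 and -0.90, per the authors' deposited table.

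By position, 176 of the 936 entries placed on a strand stood in 53 clusters, with hairpins on 1 strand within 10 kb of the next, and 760 stood alone. Medians were 0.014 in clusters and 0.019 alone. The largest clusters lie in the Dlk1-Dio3 region of chromosome 12, an imprinted region whose microRNAs are expressed from the maternal chromosome and whose silencing marks induced pluripotent lines of lower potential. The list of this region had 59 entries with a median of -0.046, 28 above 0, 3 under 0.05 for enrichment (5.08%, against 4.95% of all entries) and 2 for depletion (3.39%, against 5.08%). In its upstream cluster, from 109563692 to 109595388, 10 of 14 entries lay above 0, with a median of 0.23. In the downstream cluster, from 109709060 to 109747960, 16 of 38 lay above 0, with a median of -0.14. The downstream cluster held both entries under 0.05 for depletion and 1 of those for enrichment. There mmu-mir-154 had -1.86 and mmu-mir-134 had -1.50, while mmu-mir-369 had 0.80 with 4 of 4 guides up and an enrichment p of 0.0237, per the authors' deposited table. Its lowest entry, mmu-mir-382, had -2.64 with 2 of 3 guides down and a depletion p of 0.0776, per the authors' deposited table. In the upstream cluster mmu-mir-337 had 0.75 with 4 of 4 guides up and an enrichment p of 0.0337, per the authors' deposited table. On the other strand mmu-mir-3544, which starts inside that hairpin at 109585813, had -0.012, per the authors' deposited table. The third entry under 0.05 for enrichment was mmu-mir-3071 at 0.63, on the other strand, per the authors' deposited table.

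Other clusters of 5 or more entries lie on the X chromosome. The testis-expressed Fx-mir list of that chromosome had 19 entries with a median of -0.22, 8 above 0 and none under 0.05 in either direction. With only entries with 4 guides this median was 0.043, on the other side of 0. Of its cluster of 14 entries, from 66777256 to 66829280, 4 lay above 0, with 14 of 47 guides up and 16 down. The highest entry of that cluster was mmu-mir-742 at 0.60, with 3 guides up, 1 down and an enrichment p of 0.0512, per the authors' deposited table. The 5 hairpins placed in the miR-322 and miR-503 cluster, from 53047997 to 53054349, all lay below 0, from -0.84 to -0.044, with none under 0.05. Among them is mmu-mir-450b. Its relatives by name, mmu-mir-450a-1 and mmu-mir-450a-2, matched no RefSeq gene and so were placed in no cluster. They lay above 0, at 0.51 and 0.056, per the authors' deposited table. The 5 hairpins of the miR-532 and miR-188 cluster, from 7237683 to 7248497, ran from -1.71 to 0.58 with a median of -0.41. Of these 5, 1 had a depletion p under 0.05, where 5.08% of all entries did.

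Low numbers in microRNA names belong mostly to hairpins found early, which are often conserved and abundant, and high numbers to hairpins found by deep sequencing. The 266 entries numbered 1 to 500 had a median of 0.055, with 149 above 0. Their guides were 41.4% up and 32.5% down. The 107 entries numbered above that and up to 1000 had a median of -0.11 with 37.6% of guides up and 41.2% down. Those above 1000 and up to 3000, 91 in all, had a median of -0.053, and the 561 numbered over 3000 one of 0.0033. Shares with an enrichment p under 0.05 were 3.76%, 3.74%, 5.49% and 4.46% in that order, against 4.95% of all entries. For depletion they were 4.89%, 3.74%, 3.30% and 4.81%, against 5.08%. The shift of the low-numbered entries was thus in their guides and medians, not in calls, and it was not tested.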

How the data were processed

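Guide abundance was compared between 4 libraries, 2 from MERVL-positive and 2 from total cells. The authors deposited 1 table, whose columns are named as in MAGeCK's summary by gene, per the file headers. The submitters' processing notes name MAGeCK and mm10, and for version, settings and normalization the sources used here give nothing. Deposited columns used are the log2 fold change (2 identical columns), for each direction a p-value with its false discovery rate, the rank, the number of guides and the number past the guide threshold. A deposited score per direction was not used. No count model could be fitted, and no test was added to the authors' p-values, which were taken at 0.05.

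Medians, counts and shares were computed with Python 3.11.15, pandas 2.3.3 and scipy 1.17.1. Hairpins, hosts and seeds came from RefSeq tables of GRCm38.p6, which has the coordinates of mm10. 15 entries matched no RefSeq gene. Clusters join hairpins on 1 strand within 10 kb. The helper functions were tested on simulated data.

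The members and the 15 microRNA lists, which hold 206 entries, were chosen with earlier results of these data known. Named entries are the 10 lowest p-values per direction, the 5 highest and 5 lowest log2 fold changes with 4 guides, all miR-344 entries and, from each list, entries with p under 0.05 or the entry with the lowest p. This named 53 entries, and any other was chosen after its value was seen. A further part, entries whose 3 or more guides all passed 1 way, was to apply only under 20 such entries, and there were 57. Guide sequences were not used here.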

Additional observations from a re-analysis of the deposited data

How the results depend on the processing

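The median log2 fold change of the 1025 microRNA entries was 0.013. The mean in its place was -0.050, on the other side of 0, while only entries with 4 guides, entries without a copy number in the name, and entries matched to RefSeq gave 0.021, 0.0092 and 0.011. With 0.01 in place of 0.05, the share of entries under the threshold was 1.07% in place of 4.29% for enrichment and 0.488% in place of 4.59% for depletion, since a stricter threshold passes fewer entries. With only entries with 4 guides the shares were 4.58% and 4.82%, and without copies 4.45% and 4.77%. Of the 15 list medians, 2 changed side of 0 with the mean, neural (0.0060) and the list of miR-23a and its relatives (-0.095), and 1 with only entries with 4 guides, Fx-mir (0.043). No paired analysis was possible because the table holds 1 comparison and no values of single libraries. For the same reason the count models and leaving out a library were not run, and the depth that limits each value is unknown.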

Other observations

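Medians of the microRNA entries differed between chromosomes, and genes were set beside them as values with no test. The 35 microRNA entries of chromosome 19 had the highest median, 0.26, with 25 above 0, 5 under an enrichment p of 0.05 (14.3%, against 4.95% of all entries) and none under a depletion p of 0.05 (against 5.08%), and genes of that chromosome had the second highest gene median, 0.035. The 79 entries of chromosome 11 had the lowest, -0.17, with 28 above 0, where genes had -0.054, rank 18 of 20. Of the 32 entries of chromosome 16, 6 had a depletion p under 0.05 (18.8%, against 5.08% of all entries) and 2 an enrichment p under 0.05 (6.25%, against 4.95%), with a median of 0.13. Genes of chromosome 16 had -0.043, rank 15 of 20, where the microRNA median ranked 3. On chromosome 7 the microRNA and gene medians ranked 4 and 17, and on chromosome 5 they ranked 18 and 5. The order of chromosomes was thus not the same for microRNA entries and genes. These chromosomes were picked for their values.

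Members with a seed of the stem-cell families miR-290, miR-302 and miR-17 were mmu-mir-350 at -0.13, with no guide up and 1 down, and mmu-mir-6383 at 0.34, with 2 up and 1 down, per the authors' deposited table. Neither had a p under 0.05.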
